A study of Mus musculus with 6 samples.

Results

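Transcription factors that set the fate of airway epithelial cells were followed in the lungs of mice given interleukin 13 (IL-13). The 10 genes were chosen by name as regulators of goblet, club and ciliated cell fate, with earlier results of these data in view. These were Spdef, Foxa3, Foxa2, Foxa1, Creb3l1, Nkx2-1, Foxj1, Sox2, Ehf and Elf3. They were read by 13 probe sets of the 45037 on the array that were not controls, 4 of them for Ehf and 1 for each other gene. Adult BALB/c mice received 2 to 3 µg of IL-13 into the trachea once daily over 7 days, and the lungs were collected 24 hours after the final dose. Groups differed in genotype: wild type mice (WT, no transgene), mice lacking the IL-4 receptor (IL4R -/-, called IL4R KO), and IL4R -/- mice that carried an SMP8-IL4R transgene (+/-) (IL4R KO + SMP8-IL4R, called transgenic). The design text describes the SMP8 promoter as specific to smooth muscle, so the receptor of the transgenic mice was meant to lie on smooth muscle. Each group had 2 arrays, each holding RNA pooled from 4 mice. Every group received IL-13, so no value here comes from untreated lung.

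IL-13 signals through the IL-4 receptor and the transcription factor STAT6, and in the airway it turns secretory cells into mucus-producing goblet cells. SPDEF, a factor of the ETS family, drives goblet differentiation together with the forkhead factor FOXA3, while its relative FOXA2 is known to restrain mucus genes. NKX2-1 and SOX2 mark lung and airway identity, FOXJ1 switches on the genes of motile cilia, and the ETS factors EHF and ELF3 are expressed across epithelia. CREB3L1 is held in the endoplasmic reticulum membrane until cleaved and then acts on genes of the secretory pathway.

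Values are log2 expression values made by RMA, a method that corrects, normalizes and summarises the probes of a probe set. The median of all values was 7.10 and the lower quartile 5.30, which serve here as a guide to dim signal because no detection calls were used. Surfactant protein C (Sftpc, alveolar type 2 cells) lay between 14.73 and 14.76 and secretoglobin 1a1 (Scgb1a1, club cells) between 14.60 and 14.75 across the 6 arrays. A hepatocyte list of 12 genes, 11 with a probe set, separated the arrays. Summed over the list, linear values reached 17900 (IL4R KO pool 1) and 12710 (WT pool 2), against 1708 to 2165 elsewhere. FOXA factors are also made in liver. The brightest Il4ra probe set stood at 9.35 and 9.55 (IL4R KO), 9.98 and 9.84 (transgenic) and 9.64 and 9.81 (WT). The second brightest stood at 8.92 and 8.93 (IL4R KO), 8.94 and 8.80 (transgenic) and 9.23 and 9.29 (WT), and the dimmest lay between 6.73 and 7.14 over all groups, so only the brightest had both transgenic values above both IL4R KO values. No source used here says whether any of the 3 lies in the deleted part, and none serves as a check of genotype.

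The promoters of Spdef, Foxa3 and Foxa1 are shown because Spdef and Foxa3 had the widest differences between genotypes, while Foxa1, a forkhead relative of Foxa3, had among the narrowest. Each is the 250 bases before the annotated start, 5′ to 3′ on the gene's strand, from RefSeq on GRCm38.p6. Capitals mark matches to the words searched.
Spdef, chr17:27728952-27729201, minus strand: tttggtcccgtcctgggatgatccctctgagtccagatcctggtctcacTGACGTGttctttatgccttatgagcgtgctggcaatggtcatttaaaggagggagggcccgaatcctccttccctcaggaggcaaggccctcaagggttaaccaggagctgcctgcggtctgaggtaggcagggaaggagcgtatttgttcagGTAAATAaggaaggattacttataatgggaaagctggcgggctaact
Foxa3, chr7:19023540-19023789, minus strand: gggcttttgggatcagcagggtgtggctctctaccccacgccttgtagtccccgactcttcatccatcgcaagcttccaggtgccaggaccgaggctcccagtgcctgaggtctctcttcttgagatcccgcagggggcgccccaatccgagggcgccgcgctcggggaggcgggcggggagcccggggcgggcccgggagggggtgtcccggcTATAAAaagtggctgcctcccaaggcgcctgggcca
Foxa1, chr12:57546112-57546361, minus strand: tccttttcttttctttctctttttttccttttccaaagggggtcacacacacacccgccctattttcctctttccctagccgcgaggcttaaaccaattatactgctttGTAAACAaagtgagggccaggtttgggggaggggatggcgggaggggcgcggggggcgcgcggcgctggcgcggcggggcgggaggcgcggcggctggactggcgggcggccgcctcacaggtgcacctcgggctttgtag

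The words were searched on both strands of 32851 promoter windows of that length. The Spdef window held a forkhead word (TATTTAC or TGTTTAC, here on the opposite strand, 47 to 41 bases before the start), which 5.76% of all windows held, and TGACGTG, a word bound by CREB3 factors, 201 to 195 bases before the start (1.65% of windows). The Foxa3 window held the TATA box word TATAAA, 36 to 31 bases before the start (12.4% of windows) and was 68.8% G and C, against a median of 52.4%. The Foxa1 window held the forkhead word 141 to 135 bases before the start. A STAT6 word (TTC and GAA with 4 free bases between them) was in 5.85% of all windows and in none of the 9 windows of the 7 members with a window in the table. These are matches of letters in 1 short window, not measured binding. The other words searched were CAAGTG (NKX2 factors), which was in the Elf3 window and in 11.6% of all windows, and GGAAGT (ETS factors), which was in 1 of the 3 Foxa2 windows and in 19.7% of all.

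WT was compared with IL4R KO to ask which regulators depended on the receptor in any cell. Spdef, Foxa3, Creb3l1 and Ehf rose in WT lungs, by 2.28-fold, 4.35-fold, 1.72-fold and 1.56-fold. Sox2 and Elf3 had higher values in both WT pools than in either IL4R KO pool but did not pass. The share of all genes whose groups separate in this way was not counted, here or in the comparisons below, so a separation is given as values only. Foxa1, Foxa2, Foxj1 and Nkx2-1 did not pass and lay within 0.18 of 0 on the log2 scale. So 4 of 10 members were called higher and 0 lower, where 2.77% of the 11861 genes tested were higher, 1.92% lower and 4.7% called in either direction. The members were chosen with earlier results of these data in view, so this contrast with all genes is not independent of the data. Without WT pool 1 the count was 1 (Spdef), and without WT pool 2 it was 2 (Spdef and Creb3l1). A call means an adjusted p under 0.05 in limma, after Benjamini-Hochberg adjustment over all genes tested.

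**Figure D1:**
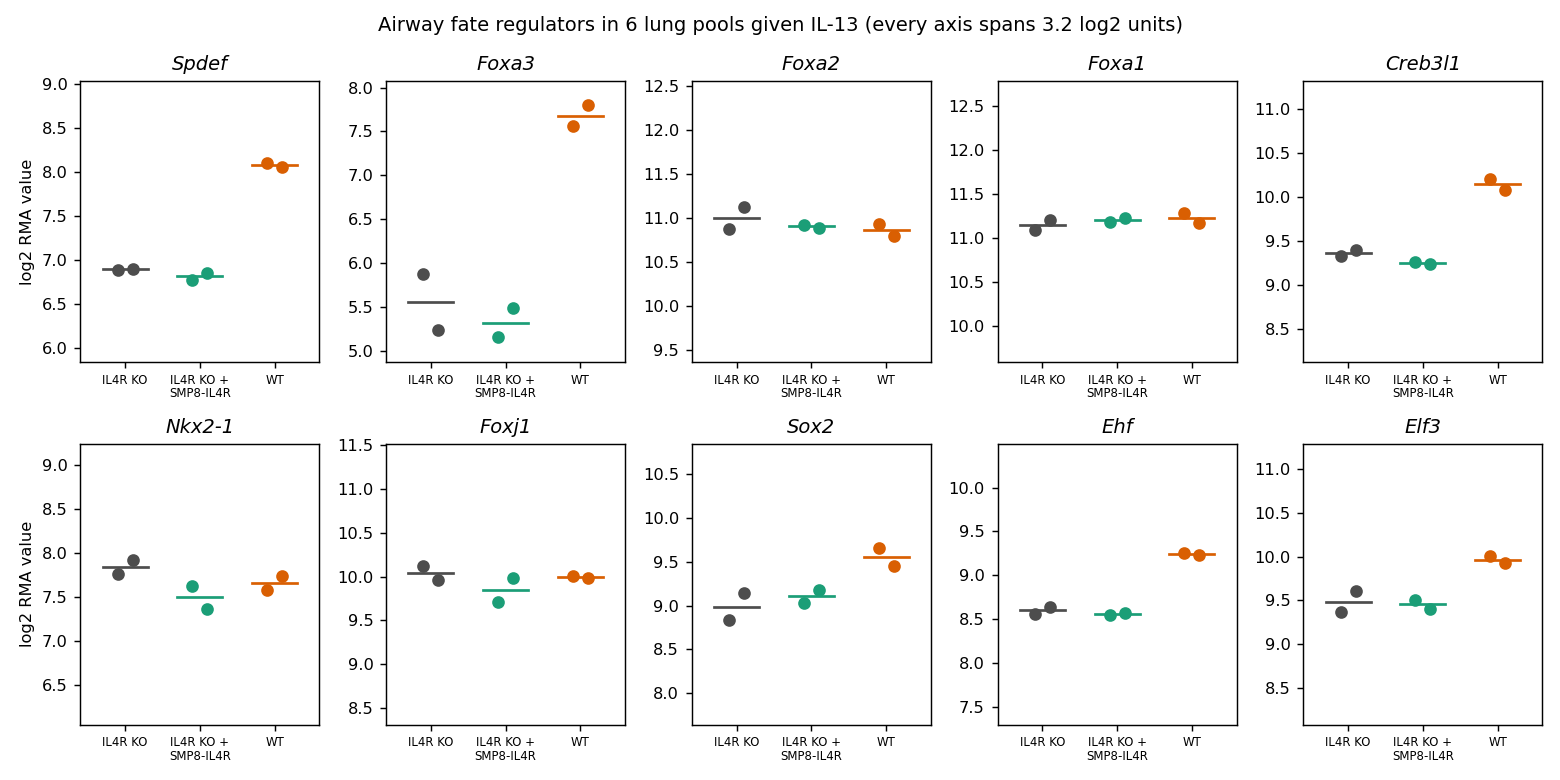
Log2 RMA values of the 10 regulators (brightest probe set of each) in IL4R KO, transgenic and WT lungs; points are the 2 pools of a group, bars their mean, and every panel spans the same number of log2 units. In Spdef, Foxa3, Creb3l1, Ehf, Sox2 and Elf3 both WT points sit above the other 4, while the transgenic points sit near the IL4R KO points. How many of all genes show such a separation was not counted.

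Spdef, the ETS factor of goblet cells, stood at 8.10 and 8.06 (WT), 6.88 and 6.90 (IL4R KO) and 6.78 and 6.85 (transgenic). Both WT pools stood clear of the other 4, which lay below the median of all values. The WT mean of 8.08 ± 0.029 (SD, n = 2) exceeded the IL4R KO mean of 6.89 ± 0.014 by 1.19 log2 units (SE 0.061, adjusted p = 0.000742 in limma). The call held without either WT pool, at 1.17 (adjusted p = 0.0195, without pool 1) and 1.21 (adjusted p = 0.0175, without pool 2).

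Foxa3, the forkhead factor that accompanies mucus production, stood at 7.56 and 7.80 (WT), 5.87 and 5.24 (IL4R KO) and 5.15 and 5.49 (transgenic). The groups WT and IL4R KO did not overlap, but the IL4R KO pools differed by 0.64 from each other. The difference was 2.12 (SE 0.23, limma adjusted p = 0.00857), the widest of the 10. The IL4R KO and transgenic means of 5.56 and 5.32 lay close to the lower quartile, so this fold is taken against dim signal. Within WT and within IL4R KO, the pool holding hepatocyte transcripts had the higher Foxa3 value. With both of those pools left out, the difference was 2.32, from 1 WT and 1 IL4R KO array. No spread within either group is left there, so it is given as a value with no p. Without WT pool 1 it was 2.24 (adjusted p = 0.067) and without WT pool 2 it was 2.00 (adjusted p = 0.0831), and neither passed.

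Spdef and Foxa3 entered the test through the WT pools alone, since the filter kept genes that exceeded that median on 2 or more arrays. With no such filter, over all 45037 probe sets, their adjusted p was 0.00112 and 0.00774. That fit also called Creb3l1 (adjusted p = 0.00774) and Ehf (adjusted p = 0.0132), so 5 of the 13 member probe sets passed, 2 of them for Ehf, where 0.999% of probe sets were higher in WT.

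Creb3l1, the secretory pathway factor, stood at 10.21 and 10.08 (WT), 9.33 and 9.40 (IL4R KO) and 9.26 and 9.24 (transgenic). It was above the median of all values in all 6 arrays, and both WT pools were above the other 4. The difference was 0.78 (SE 0.071, limma adjusted p = 0.00441). It was 0.72 without WT pool 1, which did not pass (adjusted p = 0.0557), and 0.85 without WT pool 2, which did (adjusted p = 0.0351).

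Ehf, an epithelial ETS factor, was measured 4 times over. Its brightest probe set, 1451375_at, stood at 9.25 and 9.23 (WT), 8.56 and 8.64 (IL4R KO) and 8.55 and 8.57 (transgenic). Both WT pools lay above the rest, and the difference was 0.64 (SE 0.061, limma adjusted p = 0.00557). Without either WT pool it did not pass, at 0.63 (adjusted p = 0.0886, without pool 1) and 0.65 (adjusted p = 0.0706, without pool 2). With the median over its probe sets in place of the brightest, the difference was 0.40 (adjusted p = 0.029). The second probe set, 1419475_a_at, stood at 8.83 and 8.77 (WT), 8.28 and 8.20 (IL4R KO) and 8.07 and 8.09 (transgenic), and passed over all probe sets with a difference of 0.56 (adjusted p = 0.0223).

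The remaining Ehf probe sets were dim. 1419474_a_at lay between 6.43 and 6.95, below the median of all values in every array, with a difference of 0.23 (limma adjusted p = 0.351). 1447760_x_at lay between 4.78 and 5.01, below the lower quartile, with a difference of 0.078 (adjusted p = 0.759), and probe sets with this ending can bind related transcripts. So the brighter pair of Ehf probe sets passed and the dimmer pair did not.

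**Figure D2:**
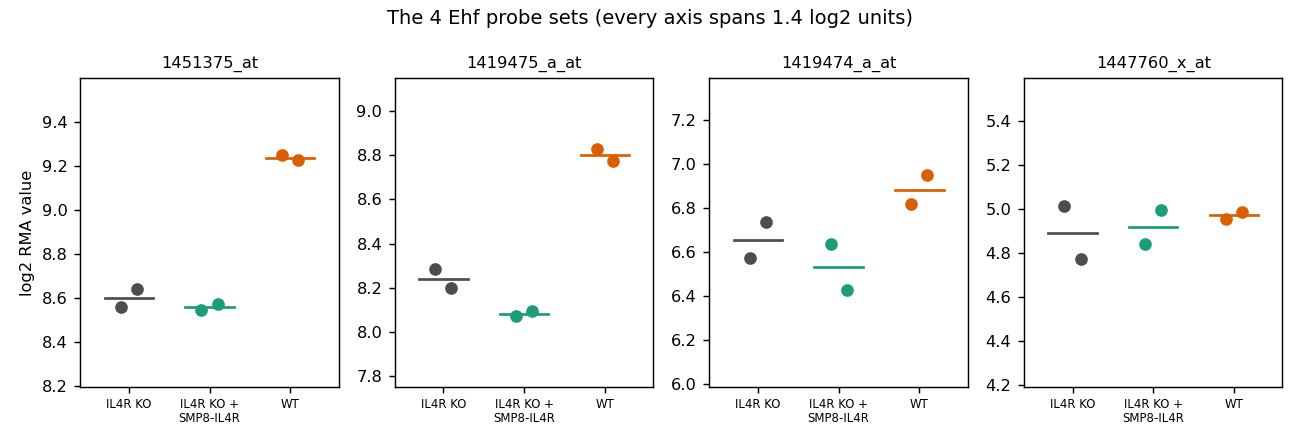
Log2 RMA values of the 4 Ehf probe sets, ordered from brightest to dimmest, in the 3 groups; points are pools, bars group means, and each axis spans the same number of log2 units. In 1451375_at and 1419475_a_at both WT points lie above the other 4, whereas in 1447760_x_at the points of all groups lie between 4.78 and 5.01.

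Sox2, which marks the conducting airways, stood at 9.65 and 9.46 (WT), 8.83 and 9.14 (IL4R KO) and 9.03 and 9.18 (transgenic). Its difference of 0.57 (SE 0.13, 95% interval 0.25 to 0.88) did not pass (limma adjusted p = 0.0715). It passed without IL4R KO pool 2 (0.72, adjusted p = 0.0226) and with an intensity trend and robust variances (0.57, adjusted p = 0.0427). Elf3, an ETS factor of epithelial differentiation, stood at 10.01 and 9.92 (WT), 9.36 and 9.61 (IL4R KO) and 9.51 and 9.40 (transgenic). Its difference of 0.48 (SE 0.098, 95% interval 0.24 to 0.72) did not pass either (adjusted p = 0.0575). Leaving out IL4R KO pool 1 (0.36, adjusted p = 0.0457) or pool 2 (0.60, adjusted p = 0.0145) made Elf3 pass, as did the fits with a stricter filter (0.48, adjusted p = 0.0478) and with an intensity trend and robust variances (0.48, adjusted p = 0.0331). Neither gene passed with only the 4 arrays compared (limma adjusted p = 0.132 for Sox2 and 0.118 for Elf3). Neither passed over all probe sets (0.105 and 0.0931) or without WT pool 1 or WT pool 2. The fits without an IL4R KO pool called a larger share of all genes, given below. Both calls thus depended on the fit. Every WT value lay above every other value, and the share of all genes with such a separation was not counted.

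**Figure D3:**
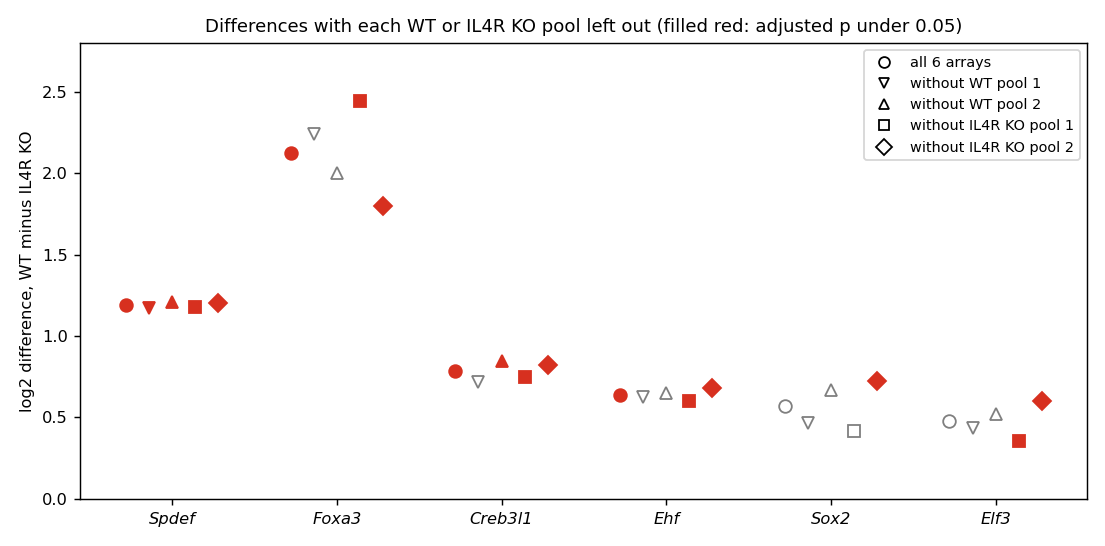
Log2 difference between WT and IL4R KO for Spdef, Foxa3, Creb3l1, Ehf, Sox2 and Elf3. Symbols show all 6 arrays and fits with 1 WT or IL4R KO pool left out, and red filled symbols passed at an adjusted p under 0.05 in limma. Spdef stayed between 1.17 and 1.21 and passed in every case drawn, while Foxa3 and Ehf did not pass once either WT pool was left out.

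Foxa2, Foxa1, Foxj1 and Nkx2-1 did not pass in WT against IL4R KO. Foxa2, known to restrain mucus genes, stood at 10.93 and 10.80 (WT), 10.87 and 11.12 (IL4R KO) and 10.92 and 10.89 (transgenic), and the groups overlapped. Its difference was -0.13 with a 95% interval from -0.38 to 0.12 (limma adjusted p = 0.488). Foxa1, a pioneer factor shared by airway and alveolar epithelium, stood at 11.28 and 11.17 (WT), 11.10 and 11.20 (IL4R KO) and 11.18 and 11.22 (transgenic). Its difference was 0.080 with a 95% interval from -0.098 to 0.26 (adjusted p = 0.558). Among the 3 FOXA genes only the interval of Foxa3, 1.56 to 2.69, lay clear of 0. Of the WT pools and of the IL4R KO pools, the one with hepatocyte transcripts had the lower Foxa2 and Foxa1 values, and the part of those transcripts was not tested.

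Foxj1, the switch for motile cilia, had a WT mean of 9.99 ± 0.014 (SD, n = 2) and stood at 10.12 and 9.96 (IL4R KO) and 9.71 and 9.99 (transgenic). The WT difference was -0.047 with a 95% interval from -0.31 to 0.22 (limma adjusted p = 0.839), and it turned to 0.031 without IL4R KO pool 1. Nkx2-1, the lung identity factor, stood at 7.58 and 7.74 (WT), 7.76 and 7.92 (IL4R KO) and 7.62 and 7.37 (transgenic). Both WT values were below both IL4R KO values, and the difference was -0.18 with a 95% interval from -0.46 to 0.10 (adjusted p = 0.405). NKX2-1 is also made in thyroid, and all 7 thyroid and parathyroid genes with a probe set lay below the median of all values in every array.

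Transgenic lungs were compared with IL4R KO lungs to ask what receptor on smooth muscle changed. None of the 10 regulators passed in limma, where 0.0759% of genes were higher, 0.0253% lower and 0.101% called in either direction. Before adjustment 1 of 10, Nkx2-1, had a limma p under 0.05. The shares above are for adjusted p, and the share of all genes with an unadjusted p under 0.05 was not counted. No other fit tried called a member here. For the 4 members that rose in WT, the transgenic difference from IL4R KO was -0.079 for Spdef (95% interval -0.23 to 0.071), -0.23 for Foxa3 (-0.80 to 0.33), -0.11 for Creb3l1 (-0.29 to 0.060) and -0.041 for Ehf (-0.19 to 0.11). The upper bounds of these intervals were below the lower bounds of the WT differences from IL4R KO, which were 1.04, 1.56, 0.61 and 0.49. Both comparisons use the same IL4R KO arrays.

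The other members gave 0.12 for Sox2 (95% interval -0.19 to 0.44), -0.031 for Elf3 (-0.27 to 0.21), 0.052 for Foxa1 (-0.13 to 0.23), -0.090 for Foxa2 (-0.34 to 0.16) and -0.19 for Foxj1 (-0.46 to 0.075). Nkx2-1 was the member farthest from 0, at -0.35 (SE 0.11, 95% interval -0.63 to -0.069, limma adjusted p = 0.331). Both transgenic values of Nkx2-1 were below both IL4R KO values. With 2 pools a group these intervals are wide. That of Sox2 overlaps the interval of its WT difference from IL4R KO (0.25 to 0.88), and that of Nkx2-1 leaves out 0. The transgenic differences of Foxa3, Foxa1 and Sox2 changed sign without IL4R KO pool 1, to 0.086, -0.00081 and -0.033. Those of Foxa2, Ehf and Elf3 changed sign without IL4R KO pool 2, to 0.034, 0.00024 and 0.092, and that of Elf3 also without transgenic pool 2, to 0.020.

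Transgenic lungs were set against WT lungs for the direct test of the gap between them. Spdef (-1.27, SE 0.061), Foxa3 (-2.35, SE 0.23), Creb3l1 (-0.90, SE 0.071) and Ehf (-0.68, SE 0.061) were lower in transgenic lungs, with limma adjusted p of 0.000635, 0.00696, 0.00319 and 0.00527. So 4 of 10 members were called lower, where 2.15% of genes were lower, 0.691% higher and 2.84% called in either direction. Of the 13 member probe sets 5 were lower, where 0.77% of all probe sets were. As folds, Spdef was 2.41-fold, Foxa3 5.12-fold, Creb3l1 1.86-fold and Ehf 1.60-fold lower than in WT. Sox2 (-0.45, adjusted p = 0.155) and Elf3 (-0.51, adjusted p = 0.0632) did not pass, and Elf3 did without either IL4R KO pool (adjusted p = 0.0146), which alters the shared spread alone. The differences of Foxa2 (0.041), Foxa1 (-0.028), Foxj1 (-0.14) and Nkx2-1 (-0.17) did not pass.

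Single pools decided some of these calls as well. Without transgenic pool 1, Foxa3 (-2.19, adjusted p = 0.0537) and Ehf (-0.67, adjusted p = 0.0593) did not pass, nor did Ehf without transgenic pool 2 (-0.69, adjusted p = 0.0551). Without WT pool 1 or WT pool 2, Foxa3 (-2.47 and -2.24) and Ehf (-0.67 and -0.69) did not pass, while Spdef and Creb3l1 did. Foxa1 changed sign without WT pool 1 (0.026) and Foxa2 without WT pool 2 (-0.026).

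**Figure D4:**
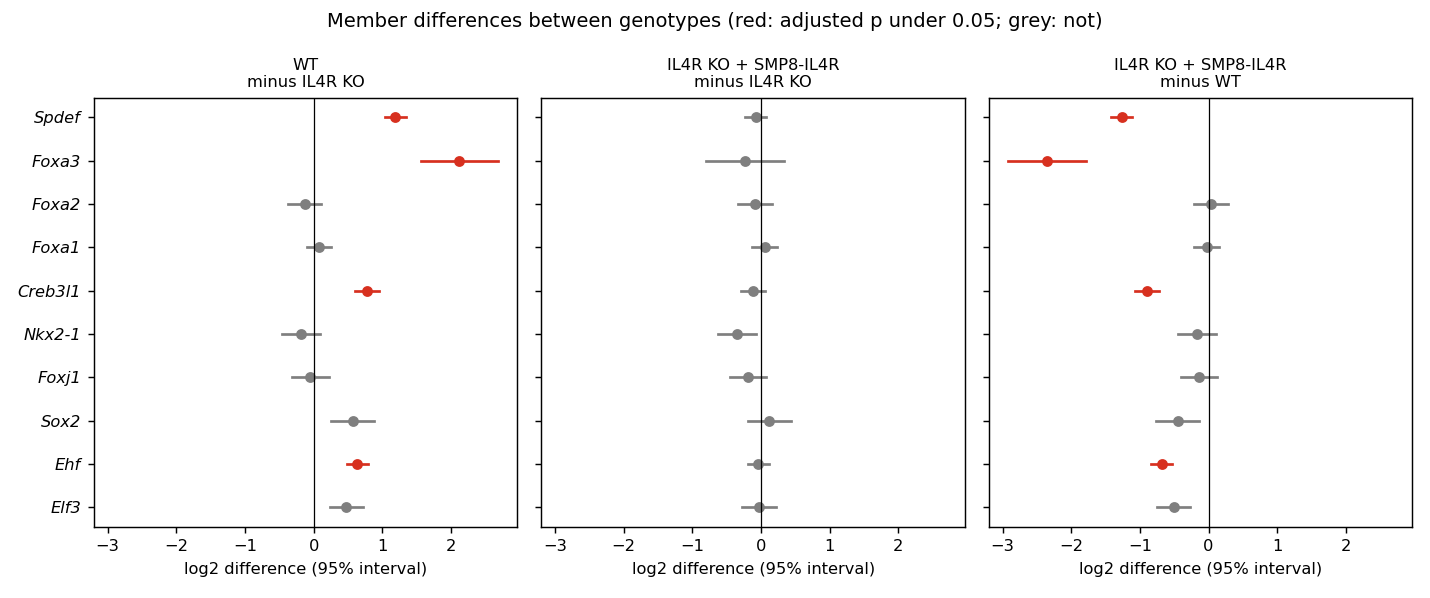
Log2 differences of the 10 members in the 3 comparisons, with 95% intervals from limma; red marks an adjusted p under 0.05. Spdef, Foxa3, Creb3l1 and Ehf lie to the right of 0 in WT minus IL4R KO and to the left in transgenic minus WT, and no member is red in transgenic minus IL4R KO.

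Genes of pathways and cell types linked to these factors by earlier knowledge were summarised by lists. The lists were chosen with earlier results of these data in view and so are not independent of them. Whether the factors act on the listed genes in these lungs was not tested. Their calls are read against the share of all genes called in the same fit. In WT against IL4R KO that share was 4.7% with all arrays, 12.8% and 10.1% when IL4R KO pool 1 or pool 2 was left out, 0.927% without WT pool 1, 1.01% without WT pool 2 and 2.53% without either transgenic pool. For transgenic against WT it was 2.84% with all arrays, 7.67% without either IL4R KO pool and 0.649% to 1.13% without a WT or transgenic pool. For transgenic against IL4R KO it was 0.101%, and 1.49% without IL4R KO pool 2. A group left with 1 array is assumed to vary like the others. Of 15 tested goblet genes, 11 rose in WT against IL4R KO with a median of 1.87, where the median of all genes was -0.024. Of the 15, Muc5ac, Clca1 and Itln1 entered the test through the WT pools alone, and with no filter 13 of all 19 passed, where 2.8% of genes did. The gel-forming mucin Muc5ac rose by 3.69, the mucus protein Fcgbp by 2.83 and the secreted protein Clca1 by 9.38, the last against IL4R KO values of 4.57 and 5.27, which is dim signal under the lower quartile. In Muc5ac the WT pools gave 10.53 and 10.49, and the other 4 arrays lay between 6.53 and 6.83. In transgenic against IL4R KO lungs 0 of 15 passed, with a median of -0.046, and against WT lungs 11 of 15 were lower, with a median of -2.18. Leaving out any single array gave 10 to 12 goblet genes called in both comparisons that hold WT. The summed linear values of the 19 goblet genes were 55250 to 56540 in WT, 8071 to 8528 in IL4R KO and 7918 to 7945 in transgenic lungs. In bulk lung, fewer cells of a type and less RNA per cell cannot be told apart.

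Of 14 tested genes of the secretory pathway, on which CREB3L1 and its relatives act, the retrieval receptor Kdelr3 (0.68, limma adjusted p = 0.0121) and the Golgi protein Golm1 (0.44, adjusted p = 0.0153) rose in WT, with a median of 0.24. None passed in transgenic against IL4R KO lungs (median 0.077), and Golm1 alone was lower in transgenic than in WT lungs (-0.37, adjusted p = 0.0352). Kdelr3 and Golm1 both lost the call without WT pool 1 and without WT pool 2, where 0 of 14 passed, and 4 of 14 passed without IL4R KO pool 1. When either transgenic pool was left out, 1 passed. The Golm1 call in transgenic against WT was lost when any 1 WT or transgenic pool was left out, and 2 genes passed when either IL4R KO pool was.

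Of 15 tested ciliated genes and 7 tested ciliated fate regulators, such as Rfx3 (0.27 in WT against IL4R KO) and Trp73 (-0.37 in transgenic against IL4R KO), 0 passed in any comparison with all arrays. Without IL4R KO pool 1 or pool 2, 2 of the 15 passed in WT against IL4R KO, as did 1 of the 7 regulators without pool 1. Of the 15, 1 passed in transgenic against WT when either IL4R KO pool was left out. Their medians in WT against IL4R KO were 0.062 and 0.0036. Of 10 club cell genes, the secretoglobin Scgb3a2 (-0.54) and the glutathione transferase Gsta3 (-0.72) fell in WT, and Retnla (2.26), which macrophages also express, rose. The club cell median was -0.090. In transgenic against WT lungs Scgb3a2 was higher by 0.50 (limma adjusted p = 0.0352), and no club cell gene passed against IL4R KO. Without WT pool 1 or WT pool 2, 0 club cell genes passed in WT against IL4R KO or in transgenic against WT, and 1 passed in WT against IL4R KO without either transgenic pool. In transgenic against WT, 0 passed without either transgenic pool and 3 without either IL4R KO pool.

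Of 14 general epithelial genes, such as junction proteins and keratins, 0 passed in any comparison, with medians of -0.019 in WT against IL4R KO, -0.10 in transgenic against IL4R KO and -0.088 in transgenic against WT. The closest to passing in WT against IL4R KO was the keratin Krt7 (-0.33, limma adjusted p = 0.0595). All 14 differences between transgenic and IL4R KO lungs were below 0, from -0.25 (Cldn4) to -0.00043 (Cdh1), where the median of all genes was -0.0047. The 14 genes share the same arrays, and the share of all genes below 0 was not counted. Summed linear values of this list were 32500 to 32980 in WT, 34060 to 35460 in IL4R KO and 31520 to 33880 in transgenic lungs. Without IL4R KO pool 1, 3 of the 14 passed in WT against IL4R KO.

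Of 17 other epithelial transcription factors 0 passed in any comparison, though in WT against IL4R KO leaving out IL4R KO pool 1 gave 4 calls and leaving out pool 2 gave 1. In transgenic against WT, 2 passed when either IL4R KO pool was left out, and in transgenic against IL4R KO, 1 passed when pool 2 was. With all arrays the 17 had a median of -0.011 in WT against IL4R KO. The lowest p there was that of Bhlha15, a factor of secretory cells (0.45, limma adjusted p = 0.0671). In the same comparison 2 passed with an intensity trend and robust variances. With no filter, or over all probe sets, 1 of the listed factors passed. Sox9, left out of the 17 by the filter and named after its values were seen, stood at 7.02 and 7.27 in WT. In IL4R KO and transgenic lungs it lay between 6.305 and 6.461. Between transgenic and IL4R KO lungs Sox17, which endothelium also expresses, gave 0.73 (adjusted p = 0.138). Of 13 Notch pathway genes, which balance secretory and ciliated fates, 0 passed, with medians of -0.18, 0.019 and 0.21 in the 3 comparisons and -0.36 for Notch1 in WT against IL4R KO (adjusted p = 0.0615). Without IL4R KO pool 1, 4 of the Notch genes passed in WT against IL4R KO, and 1 did without IL4R KO pool 2; in transgenic against WT, 1 passed without either IL4R KO pool. Of 7 genes of the IL-13 signal, the feedback inhibitors Socs1 (0.74) and Cish (0.90) rose in WT and were lower in transgenic than in WT lungs (-0.49 and -0.95). Without WT pool 1 both IL-13 signal calls in WT against IL4R KO were lost, and 1 call was left when WT pool 2 or either transgenic pool was dropped. In transgenic against WT, 0 passed when any 1 WT or transgenic pool was left out. Stat6 itself gave -0.21 in WT against IL4R KO (adjusted p = 0.107).

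**Figure D5:**
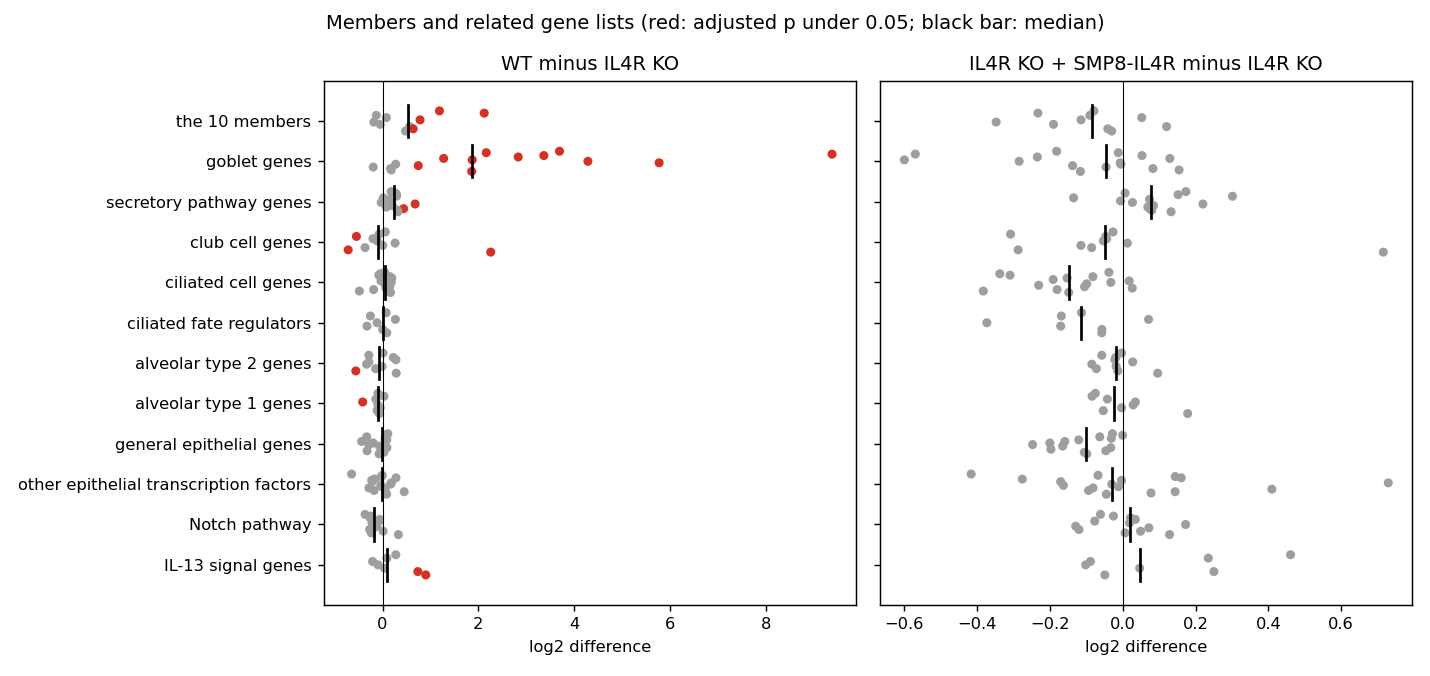
Log2 differences of the 10 members and of tested genes in 11 related lists, WT minus IL4R KO on the left and transgenic minus IL4R KO on the right (the axes differ in range); each point is a gene, red marks an adjusted p under 0.05 in limma and black bars are medians. In the left panel 4 members and 11 goblet genes are red; in the right panel no point is red.

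Other cell types were read by further lists, where 1.92% of all genes were lower and 2.77% higher in WT. In WT against IL4R KO, 1 of 10 alveolar type 2 genes fell (Lpcat1, -0.56), as did 1 of 8 alveolar type 1 genes (Aqp5, -0.41), and both were higher in transgenic than in WT lungs (0.54 and 0.45). Of 8 leukocyte genes Itgax rose in WT (1.64) and was lower in transgenic than in WT lungs (-1.70). The leukocyte sum was 20880 in transgenic pool 1, against 8723 to 13240 elsewhere. Most of it was S100a8, a neutrophil gene named after its values were seen, at 13.59 there and 10.25 to 12.56 elsewhere. Without S100a8 the sum was 8580 in transgenic pool 1 and 7180 to 10100 elsewhere. Of 8 smooth muscle genes 4 rose in WT, and 2, Actg2 (1.48) and Acta2 (0.65), were higher in transgenic than in IL4R KO lungs. Actg2 was also higher in transgenic than in WT lungs (0.47, limma adjusted p = 0.0189). The basal and squamous list had 1 tested gene, Krt5 (0.27 in WT, not called), and 6 of its 7 genes with a probe set were below the median of all values everywhere. Of 3 neuroendocrine and tuft genes Dclk1 rose in WT (0.64). The gastric and oesophageal list had 1 tested gene, Tff2, which rose in WT (1.87) and is also counted in the goblet list above. The 6 other genes of that gastric and oesophageal list with a probe set lay below the median everywhere. None of the 11 hepatocyte genes passed in any comparison, with medians of -0.26, -2.17 and -1.61. These counts also moved with single pools: in WT against IL4R KO, leaving out either WT pool left 0 alveolar type 1, 0 alveolar type 2 and 1 smooth muscle gene called, the type 1 call was lost without either transgenic pool, and the Dclk1 list had 0 without WT pool 1. Without IL4R KO pool 1 or pool 2, 5 and 2 type 2 genes and 3 and 2 leukocyte genes passed there. The smooth muscle count in transgenic against IL4R KO fell to 0 when any 1 WT or transgenic pool was left out, was 1 when IL4R KO pool 1 was dropped and 5 when pool 2 was. Of the alveolar and smooth muscle genes in transgenic against WT, 0 passed when any 1 WT or transgenic pool was left out. There, without either IL4R KO pool, 4 type 2, 2 leukocyte and 2 smooth muscle genes and Krt5 passed, and Itgax was not called without WT pool 2.

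The part of hepatocyte, leukocyte and smooth muscle transcripts in the members' values was not tested.

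Genes with the most similar pattern were found by the root mean square difference between mean-centred log2 values over the 6 arrays, among 11851 tested genes that were not members. Nearest to Spdef were the potassium channel Kcnj15 (0.071), the surface protein Cd83 (0.087) and the trefoil factor Tff1 (0.089). Nearest to Foxa3 were Aass (0.18), an enzyme of lysine breakdown, Ocstamp (0.19) and the trefoil factor Tff2 (0.19). Nearest to Creb3l1 were Ccdc80 (0.043), Ly6g6e (0.054) and the calcium pump Atp2b2 (0.061). Nearest to Ehf were the choline transporter-like Slc44a4 (0.033), Nme7 (0.036) and the aldehyde dehydrogenase Aldh1a7 (0.037). Tff1 gave 10.87 and 10.79 in WT and 9.55 to 9.76 in the other 4 arrays, close to the step seen in Spdef. The points share the arrays and their normalization, and the 6 arrays make up only 3 groups.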

How the data were processed

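Whole lung RNA pools were measured on 6 Affymetrix mouse expression arrays. The log2 values were deposited by the authors and made with RMA, per the submitters' processing notes; the version is not given in the sources used here. Array medians lay between 7.08 and 7.11. Arrays have no read depth, and their number limits the precision.

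Of 45101 probe sets 64 controls were left out. Each of 18193 genes with a probe set of 1 symbol was represented by its brightest probe set, and the 11861 genes exceeding the overall median on 2 or more arrays were tested. limma 3.58.1 in R 4.3.3 fitted 1 mean per group over all 6 arrays, with 3 residual and 2.86 prior degrees of freedom. A trial on simulated data, with noise independent between arrays, was required to recover only the largest differences added. Those were larger than any member difference here, so the trial is no check of the calls above. A difference is signed as the group before "against" less the group behind it. Nothing says that pools came from separate experiments, so p-values measure the spread between pools.

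The members, the 18 gene lists and the words searched in promoters were chosen with earlier results of these data, or the sequences, in view. Named genes were all members, up to 3 genes per list and comparison with the lowest p, and the 3 genes nearest to each called member. Sftpc and Scgb1a1 were named as tissue markers and Il4ra as the targeted gene. Alternatives varied the filter, probe set choice, variance model, samples, centring and pairing.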

Additional observations from a re-analysis of the deposited data

How the results depend on the processing

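The counts of 4, 0 and 4 members called (WT against IL4R KO, transgenic against IL4R KO, transgenic against WT) were unchanged with no filter, with the median of probe sets, with all probe sets, with arrays centred on their medians and with the replicate block. With the median of probe sets the Ehf difference in WT against IL4R KO was 0.40 in place of 0.64. Leaving out 1 array gave counts from 1 to 6, from 0 to 0 and from 2 to 5. The stricter filter, which drops Spdef and Foxa3 from the test because they were dim outside WT, gave 3, 0 and 2, and it left 7 goblet genes called instead of 11. An intensity trend with robust variances gave 6, 0 and 5, and fitting only the 4 arrays compared gave 4, 0 and 5. The trend fit called 6.42% of all genes in WT against IL4R KO and 3.72% in transgenic against WT. The main fit called 4.7% and 2.84%. In WT against IL4R KO the trend fit called 7 alveolar type 2 and 4 secretory pathway genes, where the main fit called 1 and 2. General epithelial, other epithelial factor and Notch lists each went from 0 to 2 calls. Club cell calls went from 3 to 2. Over all genes the WT against IL4R KO count was 557, with 300 in the fit of 4 arrays and 110 to 1519 over single arrays left out. For transgenic against WT it was 337, with 910 in the fit of 4 arrays and 77 to 910 over single arrays left out. For transgenic against IL4R KO it was 12, with 0 in the fit of 4 arrays, 5 with no filter or all probe sets, 7 with the median of probe sets or with centring, 19 with trend and robust variances, and 0 to 177 over single arrays left out.

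Of 444 member differences recomputed, 407 kept their direction and their side of the threshold, 12 lost a call, 10 gained one and 15 changed sign, none of them a called difference. Changes of filter, variance model or block, and the use of all probe sets, can move the p but not the difference. Leaving out a pool of the third group repeats the fit of only the arrays compared, so some recomputations are counted more than once. The 407 is thus no count of independent checks. Over the single arrays left out, Foxj1 in WT against IL4R KO ranged from -0.126 to 0.031. In transgenic against IL4R KO the ranges were -0.153 to 0.092 for Elf3, -0.552 to 0.086 for Foxa3, -0.00081 to 0.105 for Foxa1, -0.033 to 0.274 for Sox2, -0.215 to 0.034 for Foxa2 and -0.082 to 0.00024 for Ehf. In transgenic against WT they were -0.081 to 0.026 for Foxa1 and -0.026 to 0.107 for Foxa2. Leaving out both hepatocyte-containing pools leaves 1 WT and 1 IL4R KO array, with all spread taken from the transgenic pair, so its calls are not used. Sign changes there were 0.041 for Foxj1 in WT against IL4R KO, 0.086 for Foxa3, -0.00081 for Foxa1 and -0.033 for Sox2 in transgenic against IL4R KO, and -0.026 for Foxa2 in transgenic against WT. The cause was not tested.

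Deviations of same-numbered pools correlated at -0.509 between WT and IL4R KO, -0.0875 between WT and transgenic and 0.121 between IL4R KO and transgenic lungs. The WT pool and the IL4R KO pool with hepatocyte transcripts carry different numbers. That pushes the correlation between WT and IL4R KO towards negative values whether or not the numbers are pairs. The size of this part was not tested, so that value cannot decide the pairing. The main fit did not take the numbers as pairs. With the replicate number as a block, 4, 0 and 4 members were called. With dim signal in IL4R KO and transgenic lungs, the fold of Foxa3 is the least certain.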
